A study of Homo sapiens with 3 samples.

Results

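The genomic regions of GATA2 and MITF were examined in a chromatin immunoprecipitation sequencing (ChIP-seq) experiment that located DNA bound by MECOM in the human embryonic kidney line HEK293T. The regions comprised every peak assigned by name to GATA2 or MITF, and every other peak within 200 kb of either gene as the deposited table draws it. They held 4 of the 3462 peaks of the list, 3 around GATA2 and 1 around MITF, of which 2 were assigned to the genes by name. The peak list is that of cells given wild-type MECOM in the retroviral vector pMYS-IG, with a peptide label (the AM tag) that the antibody binds. The record describes the cells as transduced in one place and as transfected in another. The series has 2 further groups, cells with the empty vector and cells with tagged MECOM-R750W, and each of the 3 groups is 1 library. Their lists were not analysed here, so whether these peaks also occur with the empty vector or the mutant was not tested. HEK293T cells are of kidney origin and are not mast cells, and a peak list holds no expression values from which the cell type could be checked.

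MECOM, also known as EVI1, is a zinc finger transcription factor of blood stem cells whose raised expression marks an aggressive group of myeloid leukaemias. GATA2 is a zinc finger factor that binds GATA motifs and is required by blood stem cells and mast cells. In leukaemias with an inversion of chromosome 3, a distal enhancer of GATA2 is moved next to MECOM. MITF is a basic helix-loop-helix factor that binds E-box motifs and is required in mast cells and melanocytes, and its several alternative starts are used in different cell types, the innermost in melanocytes. The series asks how MECOM and GATA2 compete in leukaemia and in mast cell differentiation.

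The peaks fell on 1 of the 2 RefSeq transcript starts of GATA2 and on 1 of the 3 of MITF. Of all 35116 RefSeq windows, each reaching from 250 bases before a start to 50 bases after it, 4.45% were overlapped by a peak. Among the 4057 protein-coding genes with several such windows, 10.7% had at least 1 under a peak and 7.35% had exactly 1. The 250 bases before 4 of these starts are printed 5′ to 3′ in the direction of transcription, to set the starts under a peak beside starts without one. They come from RefSeq on GRCh38.p14, the assembly named hg38 in the submitters' processing notes. The outer start of GATA2 (minus strand, chr3:128493202-128493451) had no peak and is in lower case. In the inner start of GATA2 (minus strand, chr3:128488531-128488780) and the outer start of MITF (plus strand, chr3:69739214-69739463), capitals mark the bases under a peak. In the innermost start of MITF (plus strand, chr3:69936342-69936591), which had no peak, capitals mark GATA motifs.
GATA2 outer start: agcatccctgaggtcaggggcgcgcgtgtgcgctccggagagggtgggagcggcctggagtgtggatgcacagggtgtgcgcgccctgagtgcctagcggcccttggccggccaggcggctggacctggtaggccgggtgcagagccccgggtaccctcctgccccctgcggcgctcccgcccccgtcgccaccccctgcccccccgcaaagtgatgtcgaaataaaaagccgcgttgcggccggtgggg
GATA2 inner start: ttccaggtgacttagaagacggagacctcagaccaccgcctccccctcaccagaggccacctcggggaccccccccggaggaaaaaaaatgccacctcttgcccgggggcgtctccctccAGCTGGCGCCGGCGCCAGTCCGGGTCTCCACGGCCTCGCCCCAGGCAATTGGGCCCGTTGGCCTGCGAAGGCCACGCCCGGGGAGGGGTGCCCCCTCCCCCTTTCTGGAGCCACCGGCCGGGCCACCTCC
MITF outer start: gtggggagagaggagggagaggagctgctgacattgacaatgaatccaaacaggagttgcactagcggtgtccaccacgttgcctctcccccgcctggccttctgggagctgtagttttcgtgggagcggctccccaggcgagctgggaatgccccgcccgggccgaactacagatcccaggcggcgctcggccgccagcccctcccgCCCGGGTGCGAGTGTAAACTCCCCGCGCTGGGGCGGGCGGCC
MITF innermost start: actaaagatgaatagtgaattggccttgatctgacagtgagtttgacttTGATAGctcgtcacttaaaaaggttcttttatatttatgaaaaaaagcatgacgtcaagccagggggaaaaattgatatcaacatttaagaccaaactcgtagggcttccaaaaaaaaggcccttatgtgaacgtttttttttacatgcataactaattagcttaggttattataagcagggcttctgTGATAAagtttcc
The peak inside GATA2 covered 180 of the 300 bases of its window, 130 before the start and 50 after it. The MITF peak covered 92 bases of its window, 42 before the start and 50 after it.

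The strongest of the 4 peaks lay upstream of GATA2, on chromosome 3 from 128496004 to 128496437. The deposited table assigns it to GATA2 (ENSG00000179348) at 2819 bp upstream of the gene start, and it also lies within the RefSeq span of the antisense long non-coding RNA gene GATA2-AS1 (128489203 to 128503207). It had 27 fragments at its highest point over an expected background of 3.38, a deposited fold enrichment of 6.40 with an exact 95% Poisson interval from 4.29 to 9.20. Fold enrichment is the ratio of fragments to expected local background after 1 is added to each, here and at every peak. The interval covers only the counting error of the precipitated fragments. It makes no allowance, here or at the other peaks, for counting at the highest point or for listing only peaks that were called. The fold was higher than that of 87.3% of all peaks in the list, and the fragment count than that of 88.8%. In the authors' deposited table its −log10 q was 11.2, where q is the p-value of the peak adjusted over the list, and 92.6% of peaks had a lower value. The ends of the interval correspond to the 32.8th and 98.6th percentiles of the list, so its place among the peaks was not narrowly fixed at this depth. Its interval holds the median enrichment of the list, 4.82.

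A second peak lay inside GATA2, from 128488065 to 128488660, 7344 bp from the first, and covered the inner start at 128488530. The deposited annotation gave this peak to ENSG00000244300, a gene without a symbol in the table, at −1147 bp from its start. That gene runs from 128489212 to 128502348 on the plus strand, wholly within the RefSeq span of GATA2-AS1, and its start is nearer to the peak than the outer start of GATA2, so the name GATA2 in the table picks out only 1 of the 2 peaks at the gene. The inner peak had 18 fragments over a background of 3.69, or 4.06-fold (2.49 to 6.28). It was 596 bp wide, wider than 77.1% of peaks, and its fold was above that of 24.9% of peaks. Its −log10 q in the authors' deposited table was 4.10. The start of GATA2-AS1 itself lay 543 bp from this peak, and no peak overlapped its window. The outer start of GATA2, at 128493201, lay 2803 bp from the upstream peak and was likewise free of peaks.

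**Figure D1:**
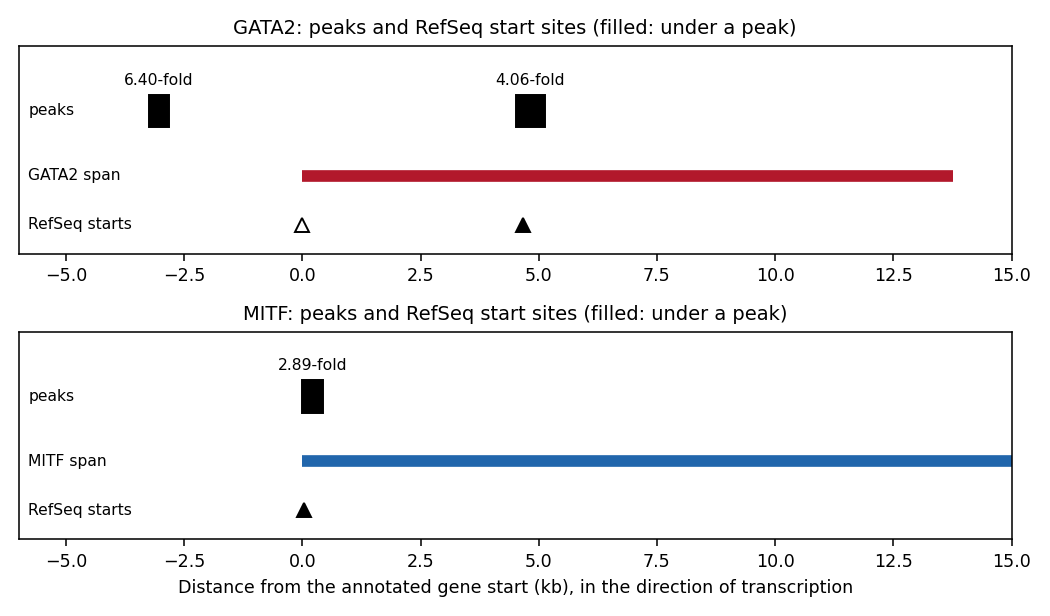
Peaks (black boxes, with fold enrichment) and RefSeq transcript starts (triangles, filled where a peak overlaps the window) against distance in kb from the gene start of the deposited table, in the direction of transcription. At GATA2 the peaks of 6.40-fold and 4.06-fold lie on either side of the outer start, which has none, and the 2.89-fold peak of MITF lies on its outer start; the other 2 MITF starts lie beyond the right edge.

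The only peak in the MITF region lay on chromosome 3 from 69739422 to 69739874, across the outer start of the gene. MITF (ENSG00000187098) spans 69739435 to 69968337 on the plus strand in the deposited table, and the peak begins 13 bp before that start. It had 19 fragments, close to the 18 of the inner GATA2 peak and the list median of 18. The background expected there was 5.93 fragments, higher than at 91.8% of peaks, against a list median of 2.92. The deposited fold was 2.89 (1.80 to 4.43), above that of 1.70% of peaks. Its −log10 q in the authors' deposited table was 2.14, near the lowest value of the list, 2.003, and 0.953% of peaks were lower. By fragments alone the MITF peak would stand above 54.3% of peaks. It is thus a peak of middling fragment count with a high expected background, whose own error was not estimated. The 2 inner starts of MITF lay 23937 bp and 196718 bp from it, and no peak covered them. The rest of the 228903 bp of the gene held no peak.

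The third peak of the GATA2 region lay 187784 bp from the gene, on the side of its start, from 128680969 to 128681329. The deposited table assigns it to RPN1, which encodes ribophorin I, a subunit of the oligosaccharyltransferase complex, and places it across the start of a gene span that ends at 128681075. RefSeq ends RPN1 at 128650818, which puts the peak 30151 bp upstream of the RefSeq start, and no RefSeq start window lies under it. It had 23 fragments, more than 76.5% of peaks, over a background of 6.52, higher than at 94.0% of peaks. Its fold was 3.19 (2.07 to 4.72), above that of 4.45% of peaks, with a −log10 q of 3.39 in the authors' deposited table. As at MITF, fragments were not few and the fold, which is computed from both, was low where the expected background was high.

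**Figure D2:**
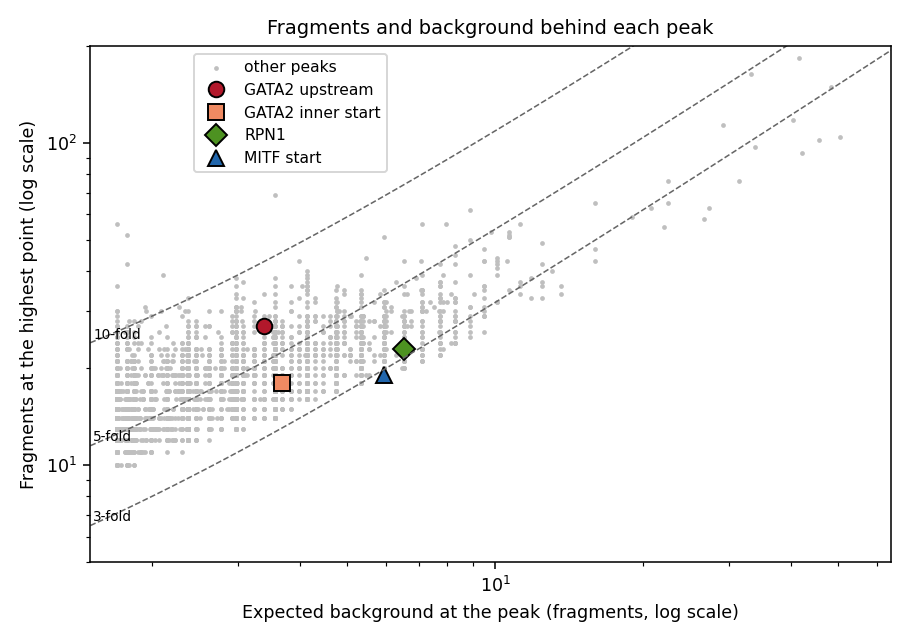
Fragments at the highest point of each peak against the background expected there, both on log scales, with dashed lines of equal fold enrichment. The MITF and RPN1 peaks (19 and 23 fragments) stand at backgrounds of 5.93 and 6.52, while the upstream GATA2 peak has 27 fragments over 3.38; 3 peaks over 100-fold and 8 others lie outside the axes.

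With the backgrounds held fixed, the upstream GATA2 peak exceeded the MITF peak by more than the counting error of their fragments. The ratio of their fragments, each divided by its background plus 1, was 2.25, with an exact 95% binomial interval from 1.205 to 4.28. Against the RPN1 peak the ratio was 2.02 (1.11 to 3.68). Against the inner GATA2 peak it was 1.61 (0.852 to 3.09), an interval that includes equality. The inner GATA2 peak was not distinguished from the MITF peak either (1.40, 0.693 to 2.82), nor from the RPN1 peak (1.26, 0.639 to 2.43), and the RPN1 and MITF peaks stood at 1.12 (0.581 to 2.17). Of the 6 pairs, 2 thus had an interval that excluded equality. The intervals are not adjusted for the 6 pairs, hold the backgrounds fixed, and compare places in 1 library. Error in the backgrounds themselves was left out and would widen the intervals. Whether the 2 intervals, with lower ends of 1.205 and 1.11, would then still exclude equality was not tested. The whole intervals of the MITF and RPN1 peaks, again with the backgrounds held fixed, lay below the list median of 4.82. All 4 peaks had a background above the list median.

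Within 200 kb, GATA2 had more peaks than 88.4% of protein-coding genes and MITF more than 45.3%. With 3 peaks in the 414 kb of gene and flanks, GATA2 had 7.25 peaks per Mb, and MITF had 1.59 per Mb with 1 peak in 629 kb. Of 20037 protein-coding genes, 11.6% had at least 3 peaks within 200 kb, 54.7% had at least 1, and the median was 1. Among the 6480 genes within 2-fold of the length of GATA2, 13.8% had at least 3, and among the 2500 within 2-fold of the length of MITF, 54.6% had at least 1. At least 2 peaks within 10000 bp of the gene, as at GATA2, were found at 2.33% of protein-coding genes, a distance chosen after the values were seen. With a −log10 q of at least 5 required, the upstream peak alone was left near GATA2, 63.0% of genes had fewer peaks, and MITF had none. The share of genes with fewer peaks than MITF was 60.1% within 100 kb and 24.2% within 500 kb, and that for GATA2 was 86.1% and 67.0%.

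**Figure D3:**
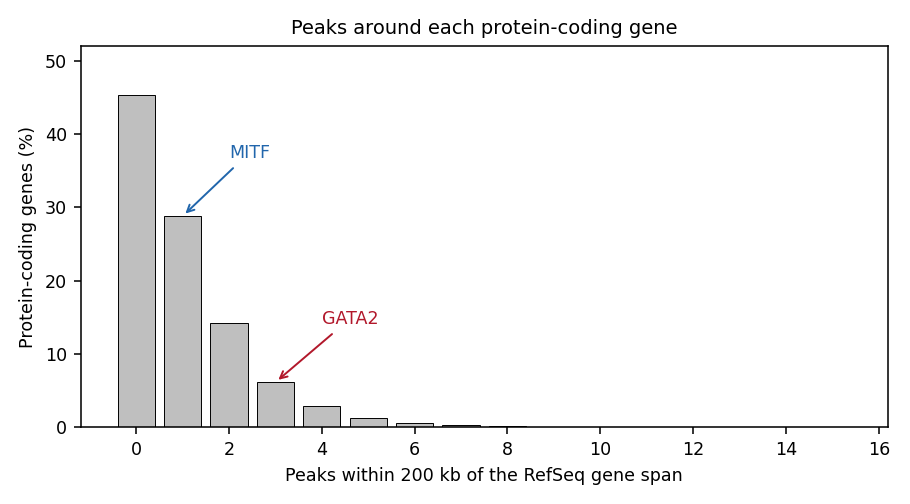
Percentage of the 20037 protein-coding genes (y axis) with each number of peaks within 200 kb of the RefSeq gene span (x axis). GATA2 stands at 3 peaks, a number reached by 11.6% of genes, and MITF at 1, the median.

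The nearest neighbours of the peaks differed as widely. The 2 GATA2 peaks were closer to each other, at 7344 bp, than 84.8% of peaks were to their nearest neighbour, for which the median distance was 132 kb. The nearest peak to that of MITF was 2.04 Mb away, and 2.35% of peaks were more isolated. Just inside the 200 kb limit stood the RPN1 peak, at 187784 bp. The first peak outside it on that side was assigned to MBD4, a DNA glycosylase gene, 947078 bp away with a fold of 10.9 (7.52 to 15.3). On the other side of GATA2 no peak occurred for 2.54 Mb, an interval that includes DNAJB8 and EEFSEC, the protein-coding neighbours on that side. The flanks of MITF held no peak for 2.08 Mb before its start and 1.82 Mb beyond its end, and neither the adjacent gene FRMD4B nor SAMMSON, a long non-coding RNA gene active in melanoma, held one within 200 kb.

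**Figure D4:**
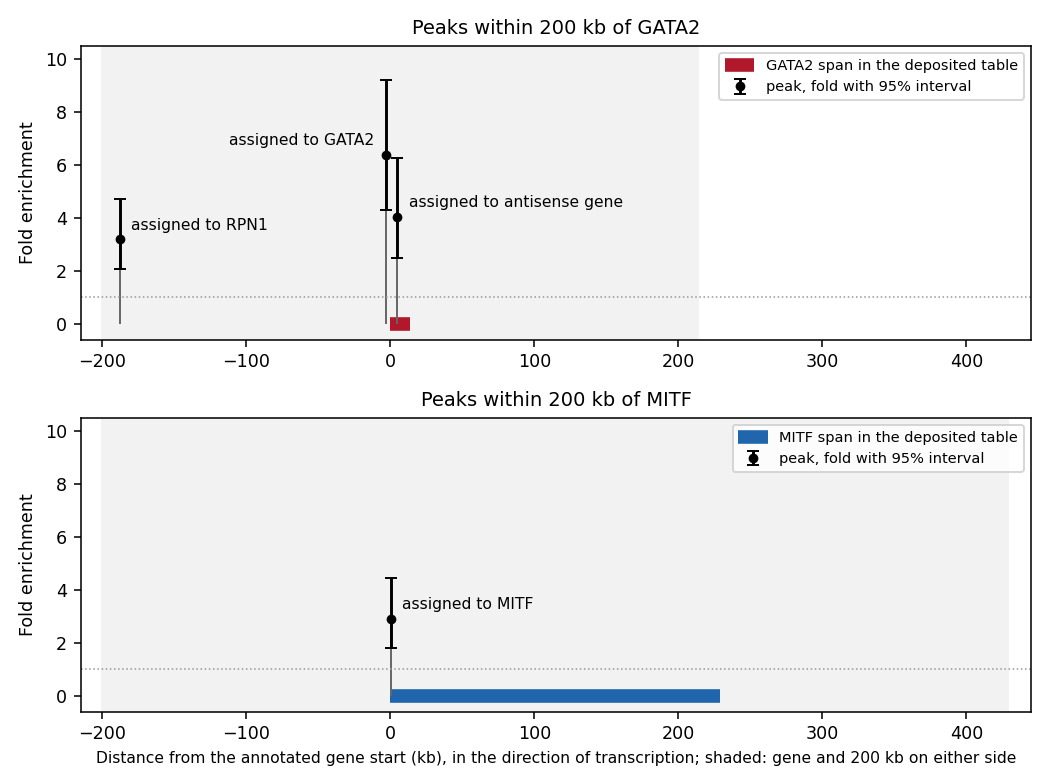
Fold enrichment with exact 95% Poisson intervals of every peak within 200 kb of GATA2 (top) and MITF (bottom), against distance in kb from the gene start in the direction of transcription; coloured bars are the gene spans and the dotted line is no enrichment. GATA2 has 2 peaks next to or inside the gene and 1 farther away that the deposited table assigns to RPN1. MITF has 1 at its start with the rest of its 229 kb free of peaks.

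The starts under a peak were rich in G and C, as were most starts under peaks elsewhere. In the 250 bases before the start, the inner start of GATA2 had 71.2% G+C and 18 CpG dinucleotides, and the outer start of MITF had 68.0% and 20. The 1564 RefSeq windows under a peak had a median of 66.4% (quartiles 60.0 and 71.6) and 22 CpGs, against 58.0% (46.4 and 68.0) and 11 CpGs over all windows. The inner starts of MITF, free of peaks, had 46.8% with 7 CpGs and 34.8% with 4. The outer start of GATA2, at 72.8% and 24 CpGs, was as rich as the starts under a peak and had none. The part of base composition in where peaks were called was not tested.

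**Figure D5:**
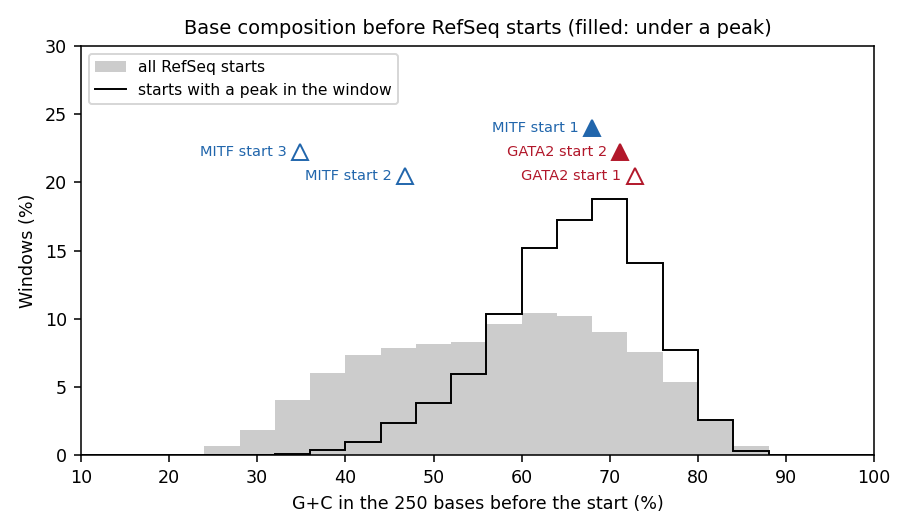
Distribution of G+C in the 250 bases before all RefSeq starts (grey) and those with a peak in the window (black line), as a percentage of windows, with the starts of GATA2 and MITF as triangles at their own G+C, filled where a peak overlaps and placed at arbitrary height. The filled starts lie at 68.0% and 71.2%, above the median of 66.4% of windows under a peak, and the open outer start of GATA2 lies higher still at 72.8%.

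None of the motifs searched lay in the covered part of either window. The search took both strands of the 300 bases for 8 kinds of motif. GATA motifs were AGATAA or its form AGATAG, and also TGATAA or its form TGATAG. The motif of the first zinc finger cluster of MECOM was GACAAGATA, which ends in AGATA and so overlaps a GATA motif where an A or G follows. That of the second cluster was GATGAG, also searched in the longer form GAAGATGAG that includes it. The others were the ETS-like AGGAAG, the E-box CACGTG, the further E-box form CATGTG and the AP-1 motif TGAGTCA. The innermost start of MITF, in capitals above, held TGATAG from −201 to −196 and TGATAA from −13 to −8, counted from the start. A GATA motif occurred in 24.97% of all windows and in 14.6% of those under a peak. The middle MITF start held an ETS-like match on the opposite strand, from −247 to −242, and the outer GATA2 start held one after its start, from 24 to 29. Such a match occurred in 33.6% of all windows and in 35.1% of those under a peak. GATGAG occurred in 12.03% of windows and 10.6% of those under a peak, GAAGATGAG in 0.347% and 0.128%, and GACAAGATA in 0.0968% and 0%. CACGTG occurred in 7.26% and 8.18%, CATGTG in 11.1% and 3.90%, and TGAGTCA in 4.95% and 3.39%. None of them occurred in the 5 windows of GATA2 and MITF. No match says only that these letters are not in these windows. No RefSeq window covers the upstream GATA2 peak or the RPN1 peak, and their sequences were not analysed here. The parts of the inner GATA2 and MITF peaks outside their windows were not searched either.

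Beside GATA2 and MITF, 1 of the other 34 mast cell genes listed was assigned a peak (2.94%), against 9.93% of 20037 protein-coding genes. This was KITLG, which encodes the KIT ligand, stem cell factor, with a peak inside the gene 620 bp from its start (4.39-fold, 2.73 to 6.73, 19 fragments). KIT, its receptor and a mast cell marker, was assigned none, and neither were the tryptase genes TPSAB1 and TPSB2, the carboxypeptidase gene CPA3 or the IgE receptor genes FCER1A and MS4A2. Counting any peak within 1000 bp of the RefSeq gene span, which 13.7% of protein-coding genes had, added RAB27B, a regulator of granule release (5.04-fold, 3.01 to 8.003), for 2 of the 34. The list holds mast cell markers and also genes, such as KITLG, LYN, SYK and STAT5A, that are not particular to mast cells. A list of 34 genes gives only an imprecise share to set against those of all protein-coding genes.

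In the families of the 2 genes, a few members carried peaks. Of 9 GATA and FOG family genes, GATA2 and TRPS1, an atypical GATA factor that represses transcription, were assigned peaks. That of TRPS1 lay 142421 bp into the gene (5.04-fold, 3.14 to 7.74). By the gene span, GATA6 (4.39-fold, 2.95 to 6.32, assigned to GATA6-AS1) and ZFPM2, which encodes the GATA cofactor FOG2 (5.58-fold, 3.51 to 8.47), also held one. MITF was the single member of the 4 MiT/TFE genes with an assigned peak, and TFEB, TFE3 and TFEC had none. Of the 7 stem cell factors known as the heptad, GATA2 was assigned a peak, and LMO2 held one by its span (4.15-fold, 2.35 to 6.89). None of 18 genes listed as targets of MITF in melanocytes was assigned a peak. The list includes genes not particular to melanocytes, such as MET, BCL2 and CDK2. Of the 18, DCT, a pigment enzyme gene, held a peak by its span (4.15-fold, 2.81 to 5.93, assigned to TGDS). Lists of 4 to 18 genes give only an imprecise share to set against the 9.93% of genes with an assigned peak and the 13.7% with one by span, and GATA2 and MITF were members by choice.

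Genes with a peak most like those of GATA2 and MITF were sought by annotation class, a distance to the start within 500 bp and the nearest log2 fold, among genes with a symbol and a single assigned peak. For GATA2 there were 14 candidates with a median of 4.85-fold, and the nearest were ZBTB32 (6.33-fold at −2539 bp), MIR5580 (6.30 at −3011 bp) and KCNJ9 (6.68 at −2792 bp). For MITF there were 417 with a median of 4.78-fold, of which 1.68% were lower than MITF. The nearest were CREB3L4 and PIK3R1, which had the same fold of 2.89 from 19 fragments, and H4C15 (2.86-fold). The likeness is in 1 library and by these measures only.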

How the data were processed

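The labels give 3 groups of 1 library, so there is no replicate error and no test between groups. Per the labels' protocols, chromatin was fixed with formaldehyde, cut with micrococcal nuclease and sonication, precipitated with an anti-AM tag antibody and sequenced in pairs. The submitters' processing notes name, without roles, HOMER 4.10, the peak caller MACS2 2.1.1.20160309.6, the aligner Bowtie2 2.4.2, the annotation package ChIPseeker 1.18.0 and the build hg38. The table is tied to the wild-type library by the genotype in its name. It has no header, and columns were identified from their values: a deposited fold enrichment (ratio), −log10 p-value, −log10 q-value and score (10 times −log10 q, whole part) for each peak, all by the authors. Pooling was not given in the sources used here, nor were library totals. Of 3465 lines, 3 repeat a peak.

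Fragments and background were recovered by finding the 1 whole number of fragments that fits both values: the fold as (fragments + 1)/(background + 1), and the −log10 p as a Poisson upper tail, within 0.001 or, for large values, a share of 1e-05 of it. This held for 3462 of 3462 peaks and for 100% of 500 simulated peaks. Intervals are exact 95% Poisson or conditional binomial (Clopper-Pearson). Gene spans, start windows and sequences came from RefSeq on GRCh38.p14, where 2248 of 2285 symbols matched, older symbols included. The 5 gene lists all matched. No genome sequence was used here.

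The members, lists and rules were chosen with earlier results of these data known. Named genes were GATA2, MITF, genes assigned peaks in or lying in their regions, list members with peaks, and for each gene the 3 with the most similar peak. Some further genes, such as KIT, CPA3 and MBD4, were named after values were seen. Alternatives were windows of 100 and 500 kb, a −log10 q of at least 5, merging within 1000 bp, RefSeq spans, other rankings and other assignments. Python 3.11.15, pandas 2.3.3, numpy 2.4.6, scipy 1.17.1 and matplotlib 3.10.9 were used.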

Additional observations from a re-analysis of the deposited data

How the results depend on the processing

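The number of peaks near GATA2, 3, was 1 when a −log10 q of at least 5 was required, the upstream peak alone, and the number near MITF fell from 1 to 0 there. It was 2 near GATA2 within 100 kb and 3 in the other 3 settings, and 1 near MITF in all the others. At the same q, mast cell genes with an assigned peak numbered 1 in place of 3 and MiT/TFE genes 0 in place of 1. With any peak within 1000 bp of the RefSeq span, GATA and FOG genes numbered 4 in place of 2 and heptad genes 2 in place of 1. The listed melanocyte targets of MITF numbered 1 in place of 0 there. With assigned peaks within 10000 bp of the start, GATA and FOG genes numbered 1. The MITF percentile by fold, 1.70, was 54.3 by fragments. The share of genes with fewer peaks nearby than GATA2, 88.4%, was 67.0% with 500 kb and 63.0% at the stricter q. That for MITF, 45.3%, was 60.1% with 100 kb, 24.2% with 500 kb and 0% at the stricter q. The 0% was fixed in advance, since MITF had no peak there and no gene can have fewer. A count was taken as kept within 1.5 times its value, a percentile by fold within the percentiles of its Poisson interval, and a share of genes within its exact 95% binomial interval, which is narrow. By these limits 26 values were kept and 16 moved, the 0% for MITF among them. The cause was not tested beyond the fewer peaks or wider regions that a setting takes. No paired analysis was possible because only the wild-type list was read. Between 18 and 27 fragments at each of the 4 peaks limit their ranking.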
